A study of Drosophila melanogaster with 5 samples.

Results

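Chromosome 4 of Drosophila melanogaster carried 698 of the 20953 annotated copies of transposable elements (TEs), or 3.33%. They were chosen by position alone, as every copy that the deposited annotation places on the sequence named arm_4, and they belonged to 94 of 166 families. The study's stated purpose is the transcription that TEs give rise to. Whole bodies of the lines iso1a, Rev and IR6 gave 3 polyadenylated RNA libraries, each from a pool of 10 adult females aged at most 3 days and 10 adult males younger than 24 h. They were primed at random, unstranded and sequenced on Illumina. Ovaries of iso1a gave 2 stranded libraries of capped 5′ ends (CAGE), labelled iso1a-454 and iso1a-Solexa (here Solexa), from 20 ovaries and 5 µg of RNA. The label normalization read yes for the iso1a body and the iso1a-454 library and no for the other 3, a label that the sources do not explain. The labels give no genotype, allele or strain background beyond the line names. Each library stood alone in its group, so differences had no replicate check, no p-values were computed, and every interval covers counting error only. Line and normalization label differed together between iso1a and the other bodies, and their parts cannot be told apart.

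Chromosome 4, the dot chromosome, is the smallest chromosome of the fly, and its genes lie among dense repeats. Most of it is packaged with the heterochromatin protein HP1a, yet its genes are transcribed, with the chromosome-specific protein Pof bound to many of them. The Helitron-like element INE-1 and the DNA transposon hoppel, which the annotation names by its number, are its hallmark repeats. TEs can also carry promoters, so a read over a copy may start within it or in a transcript that runs through it, and the TE files do not separate these cases. In whole-body RNA, fewer cells of a type and less RNA per cell cannot be told apart.

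Gene counts, to which TE counts were scaled, summed to 4379746 in the iso1a body, 11685814 in Rev, 9633168 in IR6, 109980 in the iso1a-454 library and 2813522 in the Solexa library. A floor of 3 counts corresponded to 0.685, 0.257, 0.311, 27.3 and 1.07 counts per 1000000 gene counts (CPM) in the same order. The tissue labels were checked against marker lists. Of 6 testis markers, 1 had counts in the iso1a-454 library and 0 in Solexa, while all 6 had counts in each whole body. The 9 ovary markers found summed to 90544 CPM in iso1a-454 and 60704 in Solexa. In the bodies they summed to 1431 CPM in iso1a, 17393 in Rev and 17388 in IR6. Yolk protein genes summed to 655, 62180 and 61974 CPM in the same bodies. Digestive tract markers summed to 208 CPM in iso1a, 1592 in Rev and 1986 in IR6, and eye markers to 853, 1684 and 3257. Testis markers summed to 901, 388 and 476, accessory gland markers to 1229, 330 and 349, and muscle markers to 6360, 4416 and 4103. Among the bodies, ovary, yolk, gut and eye markers were thus lower in iso1a and those of male tissues and muscle higher. Eye markers were lower in Rev than in IR6. The part of these in any difference below was not tested.

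The 698 copies ran from position 2 to 1351857 and their aligned segments covered 29.6% of that extent. INE-1 accounted for 291 copies (41.7%) and hoppel for 69 (9.89%), against 14.2% and 3.33% of copies on the major arms X, 2L, 2R, 3L and 3R. Copies lay at 51.6 per 100 kb on chromosome 4, 8.77 on the major arms and 62.3 on assembled heterochromatin. Most were fragments: the median span was 347 bp, between 101 and 12643 bp, and 38 copies exceeded 2 kb. Copies on the plus strand numbered 324 and those on the minus strand 374. A further 59 copies belonged to 20 families named for elements of other Drosophila species. By span 68 copies overlapped another copy, but by aligned segments only 9 did, so most span overlaps shared no aligned base.

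Chromosome 4 copies held 17368 counts in the iso1a body, 6995 in Rev, 2945 in IR6, 13 in the iso1a-454 ovary library and 330 in the Solexa ovary library. Their level, in CPM per kb of copy, was 8.41 in the iso1a body (95% Poisson interval 8.28 to 8.53), 1.27 in Rev and 0.648 in IR6. On the major arms the same measure was 11.0 in the iso1a body, 1.40 in Rev and 1.28 in IR6. Assembled heterochromatin held 0.502 in the iso1a body, 0.0527 in Rev and 0.0620 in IR6. In ovaries the chromosome 4 level was 0.251 in iso1a-454 (0.133 to 0.428) and 0.249 in Solexa (0.223 to 0.277), beside 0.312 and 0.211 on the major arms. As a ratio, the chromosome 4 level was nearer to that of the arms than to that of heterochromatin in all 5 libraries. How near it stood to the arms depended in Rev and Solexa on a single copy. Without the copy with the most counts, the chromosome 4 level was 0.714 in Rev, 0.605 in IR6 and 0.0784 in Solexa. The same was not computed for the arms.

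**Figure D1:**
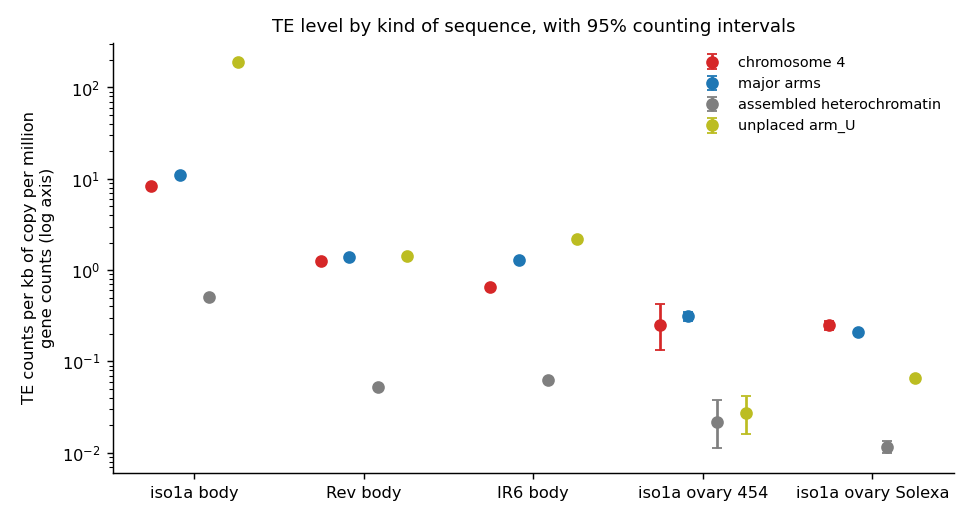
TE level in CPM per kb of copy (log axis) in each library, by kind of sequence; points are single libraries and bars are 95% Poisson counting intervals. In all 5 libraries chromosome 4 lies above assembled heterochromatin and, as a ratio, nearer to the major arms than to heterochromatin. In IR6 it stands at 0.648 against 1.28 on the arms, and in Rev and Solexa its place depends on a single copy.

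Of TE counts, chromosome 4 held 0.298% in the iso1a body, 2.51% in Rev, 1.11% in IR6, 3.38% in iso1a-454 and 4.36% in Solexa. The low share in the iso1a body went with the unplaced sequence arm_U, which held 91.3% of its TE counts. Without arm_U the chromosome 4 share was 3.43% in the iso1a body, 4.05% in Rev, 2.30% in IR6, 3.55% in iso1a-454 and 5.18% in Solexa. Copies with at least 1 count numbered 401 (57.4%) in the iso1a body, 345 (49.4%) in Rev and 304 (43.6%) in IR6. On the major arms 37.1%, 36.8% and 32.6% of copies had counts in the same bodies. The 3 bodies shared 191 copies, 108 had counts in iso1a alone among the bodies, and 178 had none in any library.

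Counts were concentrated on few copies. The first 10 copies held 46.8% of chromosome 4 TE counts in the iso1a body, 65.3% in Rev and 42.4% in IR6. Among families of 2 or more copies with at least 50 counts in a library, 1 copy held over 50% of the counts in 23 of 30 families in the iso1a body, 8 of 14 in Rev and 10 of 13 in IR6. Family sums below therefore often describe 1 copy.

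**Figure D2:**
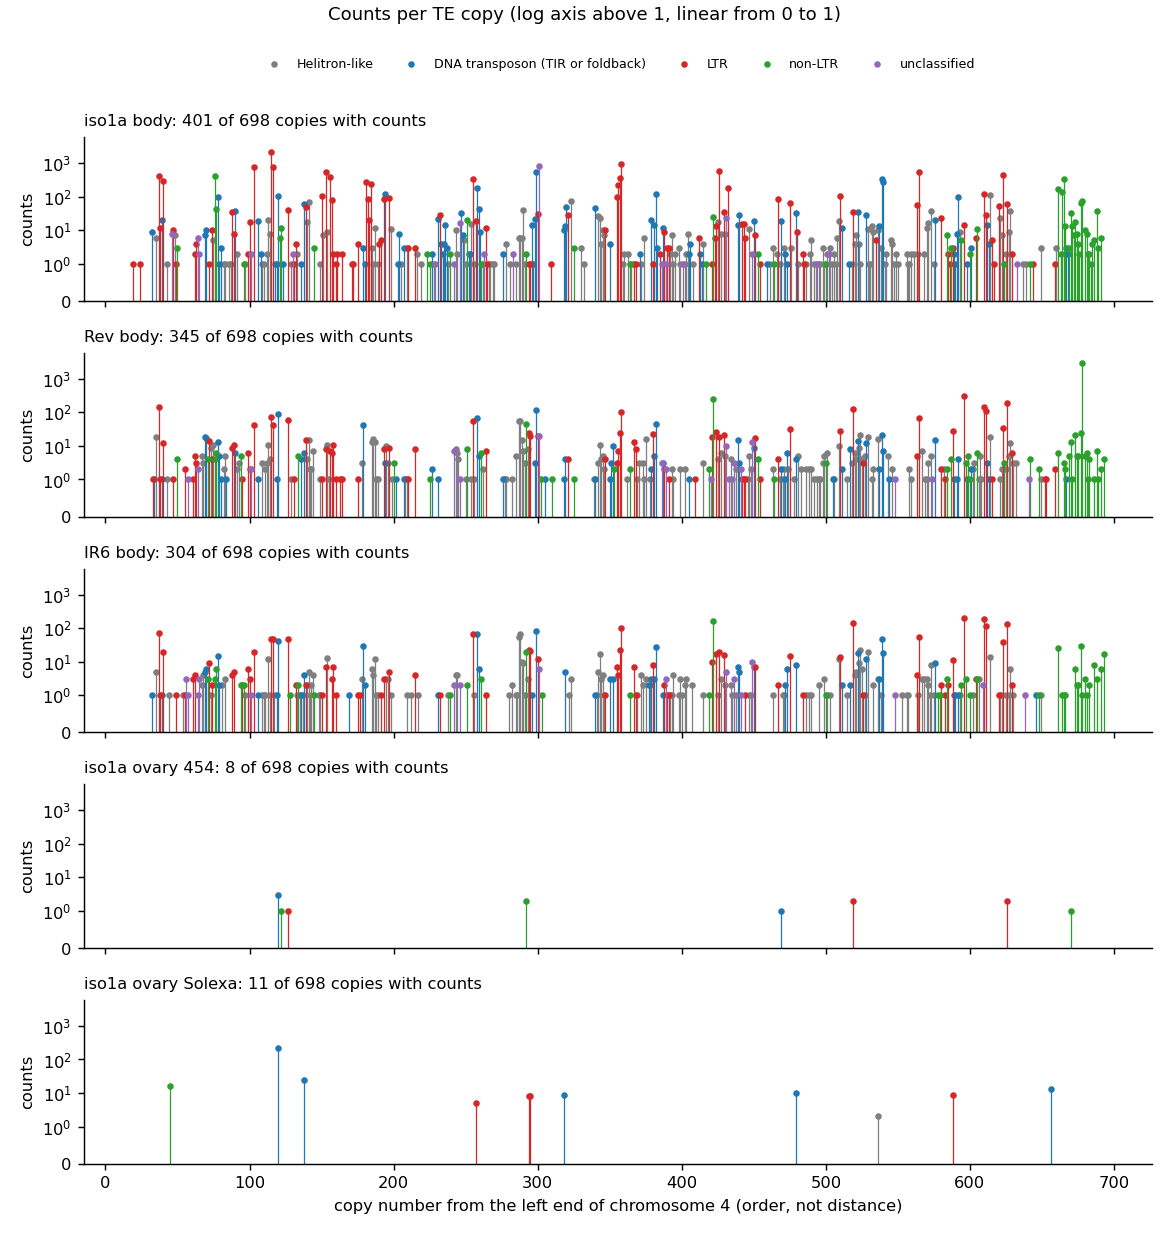
Counts of each copy (vertical axis, logarithmic above 1) against its order along chromosome 4, 1 panel per library, coloured by TE class. Counts spread along the whole chromosome in the 3 bodies, with a single TART-C copy near the right end far above all others in Rev, and fall on 8 and 11 copies in the iso1a-454 and Solexa ovary libraries.

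INE-1, a short Helitron-like element without a protein of its own, had counts on more copies than any other family in the 3 bodies. Its 291 copies held 980 counts in the iso1a body, 688 in Rev, 497 in IR6, 0 in iso1a-454 and 2 in Solexa. Counts fell on 145, 135 and 127 copies in the 3 bodies, and no copy held over 13.3% of the family in any of them. Its level was 1.88 CPM per kb in the iso1a body, 0.494 in Rev and 0.433 in IR6, and its major arm copies had 2.32, 0.303 and 0.288. The copies with the most counts in Rev and IR6 were neighbours at 562083 to 562367 and 562394 to 563933. The copy at 562394 had 6 counts in iso1a, beside 57 in Rev and 66 in IR6, and the copy at 562083 had 6, 55 and 53. Both were lower in iso1a, while the family sum was higher there.

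The DNA transposons with terminal inverted repeats or foldback structure numbered 121 copies, with 2729 counts in the iso1a body, 625 in Rev and 465 in IR6. Hoppel is a P-type transposon whose remnants can serve as sites of heterochromatin formation. Its 69 copies held 512 counts in iso1a, 136 in Rev, 93 in IR6, 0 in iso1a-454 and 13 in Solexa, a level of 2.51, 0.249 and 0.207 in the bodies. The major arm level of hoppel was 3.53 in iso1a, 0.163 in Rev and 0.153 in IR6. Counts fell on 43 copies in iso1a, 25 in Rev and 18 in IR6. Near-complete hoppel copies held few: that at 201553 to 204471 had 19 counts in iso1a, beside 1 in Rev and 1 in IR6, and that at 809553 to 812455 had 3, 0 and 0. The mariner-like S2, with 3 copies, held 561 of its 574 counts in iso1a, 119 of 122 in Rev and 81 of 84 in IR6 on the 357 bp copy at 586797 to 587153.

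LTR retrotransposons, which move by reverse transcription between long terminal repeats, numbered 145 copies and held most counts of 2 bodies: 11174 in iso1a (64.3%), 2034 in Rev (29.1%) and 1600 in IR6 (54.3%). The 12 copies named Dvir_Tv1, after an element of Drosophila virilis, led with 3927 counts in iso1a, beside 381 in Rev and 344 in IR6. Of these, the copy at 217252 to 217882 had 2108 in iso1a, 74 in Rev and 49 in IR6. It abuts a Quasimodo copy at 217883 to 218180, which had 799, 42 and 48. Another Dvir_Tv1 copy, at 1213318 to 1213713, had 123 counts in iso1a, beside 144 in Rev and 186 in IR6, and scaled to gene counts its log2 ratio of iso1a was 1.19 to Rev and 0.54 to IR6. All 3 copies were thus highest in iso1a once scaled to gene counts, the last by less. The direction of the last against IR6 depended on the scaling. TMM factors moved every log2 ratio of iso1a to IR6 by -0.58, and median-ratio factors by -0.53. The total over genes and TE copies moved them by -1.18. Copies of 17.6 had 925, 106 and 98 counts at 712375 to 712610 and 412, 145 and 71 at 64112 to 64353. The copies of roo, a family abundant in fly genomes, differed in direction. That at 891415 to 891863 had 603 counts in iso1a, beside 18 in Rev and 19 in IR6. That at 1195469 to 1195707 had 14 counts in iso1a, beside 301 in Rev and 195 in IR6. The first was highest in iso1a and the second lowest there.

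McClintock, an LTR family of 6 copies, had 102 counts in iso1a, beside 321 in Rev and 274 in IR6, at a level of 2.80, 3.30 and 3.42. Its major arm copies stood at 153 in iso1a, 14.5 in Rev and 15.2 in IR6. The chromosome 4 counts lay on the fragments at 1233618 to 1234030 (60, 185 and 132) and 1058765 to 1059356 (34, 131 and 141). The full-length copy at 34275 to 40713 had 1 count in iso1a and 0 in the other 4 libraries.

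**Figure D3:**
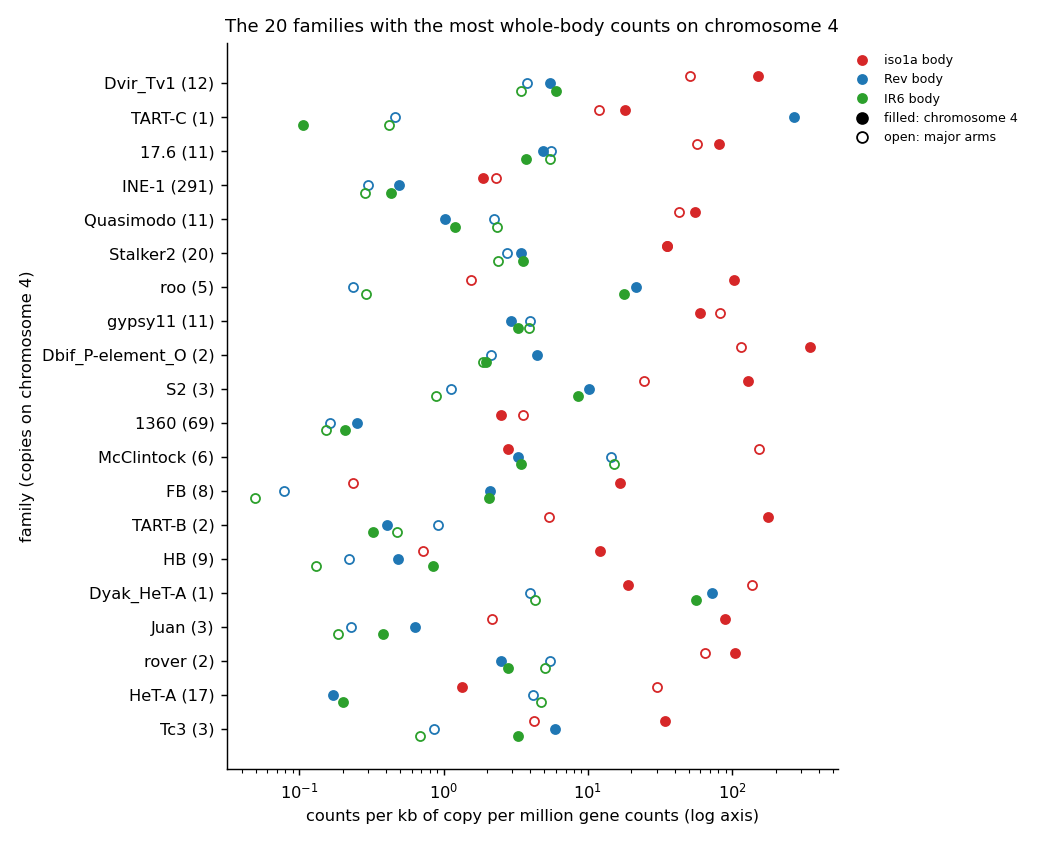
Level in CPM per kb of copy (log axis) of the 20 families with the most whole-body counts on chromosome 4; filled points are chromosome 4 copies, open points major arm copies, coloured by body. By filled points most families lie highest in iso1a, and TART-C, Dyak_HeT-A and McClintock do not. The open points of these families do lie highest in iso1a. Hoppel stands under its number.

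Within several families most chromosome 4 copies, with or without counts, shared one part of the element. All 12 Dvir_Tv1 copies included element position 6013, against 76.1% of the major arm copies. Of 11 copies of 17.6, 10 included position 849, and they held 99.8% of the family's counts in iso1a, beside 97.2% in Rev and 97.8% in IR6. On the major arms 71.2% of 17.6 copies included it. All 6 McClintock copies included position 1038 and all 6 HMS-Beagle copies position 1063, against 70.8% and 67.1% on the major arms. These positions were found on the same chromosome 4 copies, which favours a high share there, and are a description. Other families had a lower share on chromosome 4 than on the major arms. They included Burdock (40% against 54.5%), F-element (50% against 73.1%) and Stalker2 (80% against 81.5%). The 487 copies under 500 bp stood at 18.9 CPM per kb in iso1a, 1.89 in Rev and 1.69 in IR6, the 173 from 500 to under 2000 bp, TART-C among them, at 8.05, 2.10 and 0.415, and the 38 of at least 2000 bp at 0.678, 0.0676 and 0.0594. The longest copies had the lowest level in each body, and in Rev the middle class was the highest. The 28 copies that reached 2000 bp and 50% of their element summed to 416 counts in iso1a, beside 106 in Rev and 83 in IR6. Among them the full-length Tirant copy at 692283 to 700811 and the full-length I-element copy at 97177 to 102547 had 0 counts in every library. The length over which reads could be placed uniquely was not tested.

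In ovaries 18 copies had capped 5′ ends in either library, and only 1 had them in both. It was a 133 bp fragment of Tc3, a mariner-like transposon, at 226392 to 226524. It had 3 counts in iso1a-454 and 226 in Solexa, and 106, 90 and 42 counts in the iso1a, Rev and IR6 bodies. In Solexa it made up 68.5% of chromosome 4 TE counts. An S-element copy at 246941 to 247612 had 24 Solexa counts and 60, 6 and 4 in the iso1a, Rev and IR6 bodies. A copy named Dvir_Het-A at 78616 to 78893 (16 Solexa counts) and a hoppel copy at 1271943 to 1272481 (13) had no counts in any body and none in iso1a-454. The blood copy at 579642 to 580019 and the roo copy inside it, at 579656 to 579944, each had 8 Solexa counts, which may be the same reads. In iso1a-454 the McClintock copies at 1058765 and 1233618 and a Dvir_TART copy at 572609 to 572982 had 2 counts each. All 13 counts of iso1a-454 lay on minus-strand copies, and 301 of 330 in Solexa, but the strand of the reads is not in the TE files. Of the 301, 226 were those of the Tc3 copy. By copies, Solexa had counts on 7 of the minus strand and 4 of the plus strand, and iso1a-454 on 8 and 0. Over all copies the log2 ratio of iso1a-454 to Solexa was 0.06 (13 against 330 counts, exact 95% interval -0.91 to 0.81). Without the Tc3 copy it was 1.36 (10 against 104 counts, 0.20 to 2.23). With so few counts in iso1a-454, smaller differences were not detectable. Platform and normalization label differed together between these libraries, and their parts cannot be told apart.

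The right end of the sequence held a telomeric array. In flies, chromosome ends are kept by the non-LTR retrotransposons HeT-A, TART and TAHRE, which insert there and take the place of telomerase. From 1275695 to 1351857, 33 of 38 copies belonged to these families, all on the minus strand, and no other copy of them lay on chromosome 4. They were 17 HeT-A, 7 TAHRE, 6 TART-A, 2 TART-B and 1 TART-C copies. The 38 copies held 985 counts in the iso1a body, 3183 in Rev, 109 in IR6, 1 in iso1a-454 and 0 in Solexa. That was 5.67%, 45.5% and 3.70% of chromosome 4 TE counts in the 3 bodies.

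TART-C had its only chromosome 4 copy here, 978 bp at 1291845 to 1292822, which aligned to element positions 10140 to 11116. It had 77 counts in iso1a, 3066 in Rev, 1 in IR6 and 0 in both ovary libraries. Its level was 18.0 CPM per kb in iso1a, 268 in Rev and 0.106 in IR6. TAHRE copies that start at 1284787 and 1285201 span it without aligning to it, and they had 5 and 0 counts in Rev. Elsewhere in the genome 11 TART-C copies included some of the same part of the element, with 63 counts for iso1a, 60 for Rev and 11 for IR6. The counts of Rev over this part of the element, as deposited, thus lay nearly all on the chromosome 4 copy. How reads mapping to several places were treated is not given. The listed read names amounted to 8.41% of chromosome 4 counts in Rev, so the place of most of these reads could not be checked. Whether the 3 lines carry the same sequence at this place was not tested.

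The other members of the array had fewer counts in Rev. HeT-A had 209 counts in iso1a, beside 71 in Rev and 69 in IR6, and its log2 ratio of Rev to IR6 was -0.24 (-0.74 to 0.26). TAHRE had 34, 36 and 11. TART-A had 169, 6 and 26, all on the copy at 1275695 to 1276263, the leftmost of the array. TART-B had 489 counts in iso1a, beside 3 in Rev and 2 in IR6, on neighbouring copies at 1277700 to 1277866 (140, 0 and 1) and 1277867 to 1278334 (349, 3 and 1). TART-A and TART-B were thus highest in iso1a and TART-C in Rev. Without the TART-C copy the array held 117 Rev and 108 IR6 counts, with a log2 ratio of -0.16 (-0.55 to 0.23). Within that sum families differed in direction. The log2 ratio of Rev to IR6 was 1.39 (0.43 to 2.55) for TAHRE and -2.31 (-3.97 to -1.08) for TART-A. Both had under 50 counts in Rev and IR6 together. The 5 TART-A copies at the outermost 27977 bp had 0 counts in all 5 libraries.

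**Figure D4:**
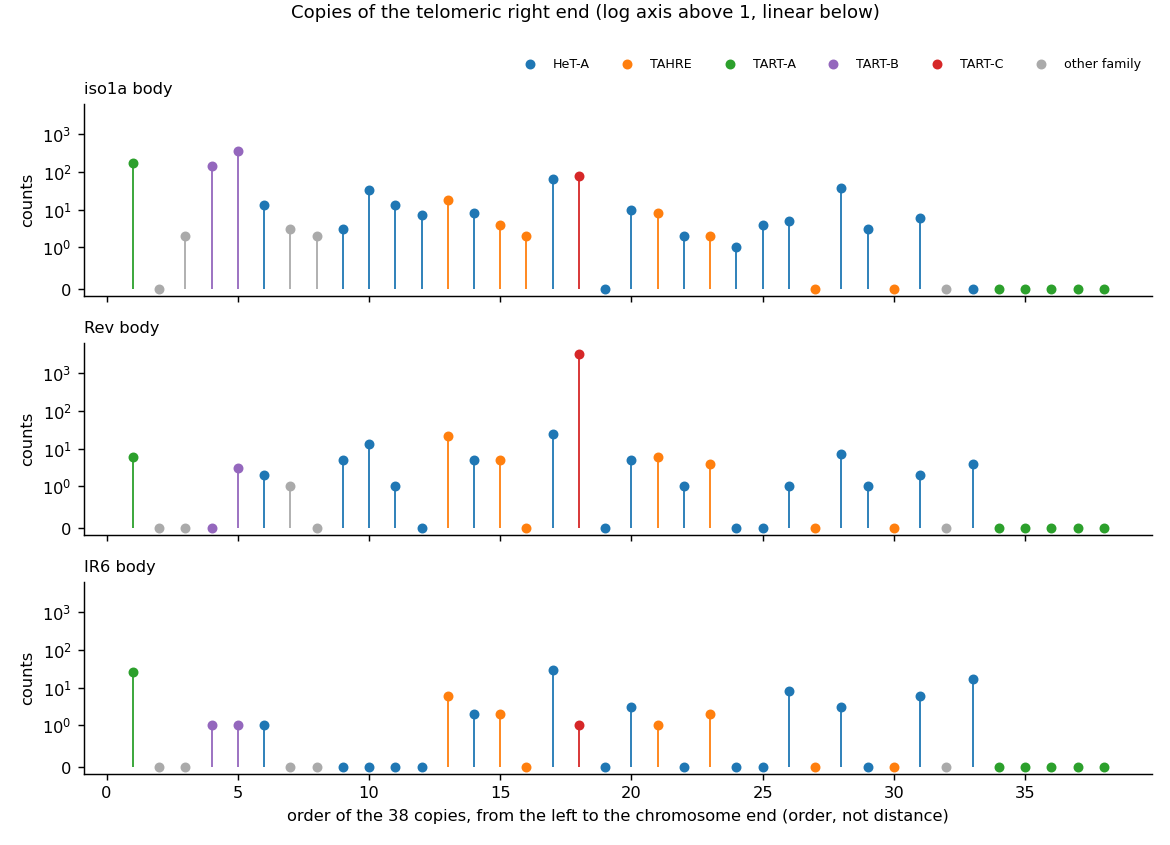
Counts (vertical axis, logarithmic above 1) of the 38 copies of the right end in order, in the iso1a, Rev and IR6 bodies, coloured by family. The TART-C copy reaches 3066 counts in Rev against 1 in IR6, the TART-B copies are high in iso1a, and the 5 TART-A copies at the end are at 0.

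Rev was compared with IR6 first, since both carried the same tissue, platform and normalization labels. Calls needed at least 50 counts in the libraries together and a 2-fold difference. Of 698 copies 26 could be measured, of which 1 was higher in Rev and 1 lower, where 11.6% of all measured TE copies of the series were higher and 4.82% lower. The median log2 ratio was 0.05 on chromosome 4 and 0.15 over all copies. The higher copy was TART-C (3066 against 1 count, log2 ratio 10.72, 8.82 to 16.61). The lower was an HB copy, a mariner-like transposon, at 1096933 to 1097619 with 21 counts in Rev and 47 in IR6 (-1.42, -2.26 to -0.67). No other measured copy passed 2-fold, and the nearest was Dvir_TART at 572609 (45 against 20, 0.87). The copies with the most counts in IR6 stayed within 2-fold, among them the roo copy at 1195469 (0.35, 0.08 to 0.62). The McClintock copy at 1233618 had a log2 ratio of 0.21 (-0.12 to 0.54). Of 21 measured families 1 was higher and 0 lower, where 6.54% and 0.935% of all families were, and it was again TART-C. The call ends if copies that overlap another by span are left out, since TART-C is one of them, although it shares no aligned base. With a minimum of 20 counts 10 copies were higher and 4 lower, and the share over all copies at that minimum was not computed. INE-1 (0.19, 0.02 to 0.36) and hoppel (0.27, -0.12 to 0.67) did not pass.

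Summed over chromosome 4, Rev had a log2 ratio to IR6 of 0.97 (6995 against 2945 counts, 0.91 to 1.03), which fell to 0.14 without TART-C (3929 against 2944, 0.07 to 0.21). The major arms stood at 0.13 and assembled heterochromatin at -0.23. In 10 windows of equal length, the ratio ran between -0.08 and 0.64 in the first 9 and was 3.25 in the last (3453 against 298 counts). Chromosome 4 outside the TART-C copy therefore stood near the arms.

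The iso1a body was compared with Rev and IR6, and a call needed 2-fold against both. Of 59 measured copies 49 were higher in iso1a and 4 lower, beside 83% and 10.9% of all measured copies, so the share higher on chromosome 4 was near that of the whole series. Of the 59, 35 had under 50 counts in Rev and IR6 together and could be called only higher. Among the 24 with 50 or more there, 14 were higher and 4 lower. The minimum in both pairs left out 2 others with 50 or more there, both low in iso1a: the Dvir_TART copy at 572609, with 2, 45 and 20 counts in the iso1a, Rev and IR6 bodies, and a hoppel copy at 338845 to 339157 with 3, 43 and 29. The balance of higher and lower thus depends partly on this minimum. The sum over chromosome 4 had log2 ratios of 2.73 to Rev and 3.70 to IR6, and without TART-C 3.55 and 3.69. The major arms stood at 2.97 and 3.11.

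A run of 4 neighbouring copies of the LTR families Stalker and Stalker2 from 340670 to 348773, whose element positions run in order along the plus strand, had counts in iso1a alone among the bodies. They had 273, 83, 20 and 234 counts there, and the copy with 20 was below the minimum. With 3 counts in place of 0, the first, a Stalker2 copy of 419 bp, was in iso1a at least 243-fold higher than in Rev and at least 200.2-fold higher than in IR6. The HMS-Beagle copy at 905229 to 905437 had 185 counts in iso1a and 0 in Rev and IR6, at least 165-fold and 136-fold more. A Juan copy, a non-LTR retrotransposon, at 134177 to 134454 had 420 counts in iso1a, beside 4 in Rev and 3 in IR6. The Dbif_P-element_O copy at 598967 to 599261 had 851, 20 and 6 counts, and the HB copy that was lower in Rev had 333, 21 and 47. The higher copies named here thus came from LTR, non-LTR and DNA transposon families and from a family left unclassified.

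The copies lower in iso1a than in both were the roo copy at 1195469 (log2 ratios -2.96 to Rev and -2.62 to IR6) and the Dyak_HeT-A copy at 882513 to 882814. That element is named for Drosophila yakuba, and its copy had 25 counts in iso1a, beside 257 in Rev and 164 in IR6 (-1.92 and -1.55). The INE-1 copies at 562394 (-1.73 and -2.22) and 562083 (-1.68 and -1.90) completed the 4. The TART-C copy was lower than in Rev (-3.89) and higher than in IR6 (6.83). Of 34 measured families 31 were higher and 1 lower, beside 85.2% and 4.35% of all families. As with copies, a family with under 50 counts in Rev and IR6 together could be called only higher. TART-B (8.54 and 8.75), Stalker (8.43 and 8.89) and Juan (7.05 and 7.69) had the largest ratios, and INE-1 (1.93 and 2.12) lay well below them. TART-B (3 and 2 counts in Rev and IR6), Stalker (2 and 1) and Juan (8 and 4) were families that could be called only higher. Dyak_HeT-A, with the 1 copy described above, was the lower family.

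**Figure D5:**
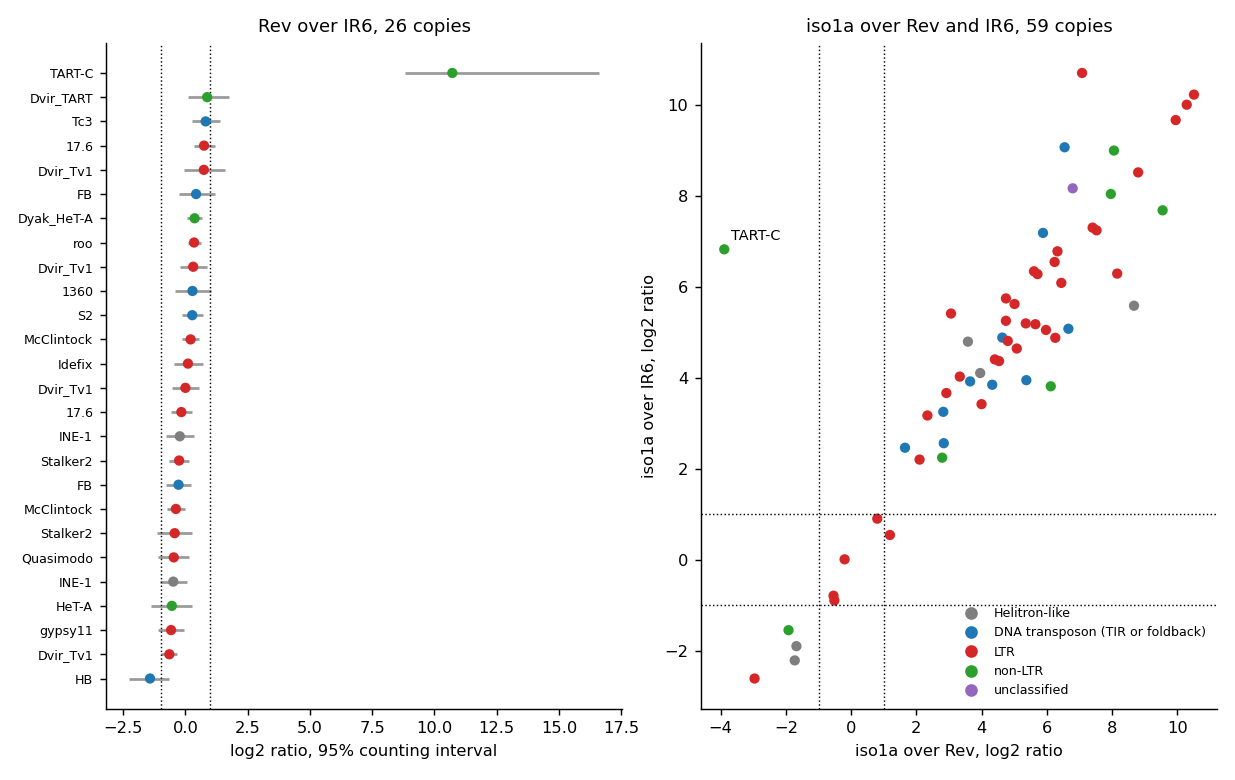
Left, log2 ratio of Rev to IR6 with 95% counting intervals for the 26 measured copies; right, log2 ratios of iso1a to Rev and to IR6 for the 59 measured copies; dotted lines mark 2-fold and colours the TE class. TART-C alone stands far to the right of zero in Rev over IR6, and 49 copies lie past 2-fold in iso1a against both.

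Counts of the same copies, not divided by copy length, were related unequally between bodies. Spearman's rho was 0.589 between Rev and IR6 over 410 copies with counts in either, 0.281 between iso1a and Rev over 490, and 0.265 between iso1a and IR6 over 477. These describe copies that share libraries and sizes, with many low counts.

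Genes of chromosome 4 were set beside its TE copies. They held 2.30% of gene counts in the iso1a body, 2.34% in Rev, 2.14% in IR6, 1.73% in iso1a-454 and 2.41% in Solexa. A list of genes of this chromosome matched 69 gene identifiers. Between Rev and IR6, 65 were measured, 4 were higher in Rev and 0 lower, beside 4.34% and 3.47% of all genes. Their median log2 ratio was 0.29, against 0.10 over all genes. The 4 were PlexB, a semaphorin receptor gene (1032 counts in Rev against 415 in IR6, 1.03, 0.87 to 1.20), yellow-h (595 against 229, 1.10), dati, a zinc finger gene (170 against 55, 1.34), and CG33978 (1014 against 406, 1.04). TMM factors left 2 genes higher, and median-ratio factors gave 1 higher and 1 lower. ATPsynbeta, which encodes a subunit of ATP synthase, had 127418 against 96522 (0.12). RpS3A, a ribosomal protein gene, had 30998 against 25440 (0.01).

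In iso1a against both, 40 of 66 measured genes were higher and 2 lower, beside 35.2% and 19.3% of all genes, and the median of the smaller ratio was 1.45 on chromosome 4 and 0.28 over all genes. The 2 lower were ATPsynbeta (4415 counts in iso1a, beside 127418 in Rev and 96522 in IR6) and RpS3A (2161, 30998 and 25440), both very abundant genes. Among the higher, unc-13, a gene of synaptic vesicle release, had 4854 counts in iso1a, beside 1057 in Rev and 653 in IR6 (3.61 and 4.03). The Polycomb-group gene pho had 2466, 2455 and 1788 (1.42 and 1.60), and with TMM factors it was no longer past 2-fold over Rev (0.93). MED26, of the Mediator complex, had 3985, 2756 and 1799 (1.95 and 2.28), and the transcription factor gene Mitf had 2964, 1794 and 1118 (2.14 and 2.54). The titin-like gene bt had 3879, 6959 and 4421 (0.57 and 0.95), and apolpp, the gene of the lipid carrier lipophorin, 3485, 14166 and 13089 (-0.61 and -0.77). Neither passed. The split depended on scaling. TMM factors moved every ratio by -0.49 to Rev and -0.58 to IR6 and gave 30 higher and 7 lower, and the total over genes and TE copies moved them by -1.19 and -1.18 and gave 18 higher and 10 lower. The shares of all genes under these scalings were not computed. The median log2 ratio of all genes to Rev was -0.08 with TMM factors and -0.78 with the total over genes and TE copies. On the chromosome 4 list it was 0.96 and 0.27.

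Genes of factors that act on the chromosome were compared in the same way. Between Rev and IR6, 0 of 20 measured heterochromatin factor genes passed 2-fold in either direction, where 4.34% of all genes were higher and 3.47% lower, a background at which 20 genes show little. Su(var)205, the gene of HP1a, had 6974 counts in Rev and 7134 in IR6 (-0.31), and Pof had 576 and 473 (0.01). Of 8 telomere capping genes 1 was lower in Rev, ver, with 43 against 103 counts (-1.53), and cav, which encodes the capping protein HOAP, had 352 against 257 (0.17). HipHop, of the same complex, had 854 against 714 (-0.02). Of 27 piRNA pathway genes, whose products silence TEs in the gonads, 1 was higher (3.70%, near the 4.34% of all genes), armi, with 266 against 102 (1.10), a call that median-ratio factors ended. The Argonaute gene piwi had 2228 against 1298 (0.50) and AGO3 1533 against 857 (0.56). In iso1a, 5 of 20 heterochromatin factor genes were higher (25%) and 7 lower (35%), beside 35.2% and 19.3% of all genes. Pof was higher, with 1105 counts in iso1a, beside 576 in Rev and 473 in IR6 (2.36 and 2.36), and Su(var)205 lower, with 529, 6974 and 7134 (-2.30 and -2.61). The other lower members were Su(var)2-HP2 (-3.15 and -2.84), wde (-2.05 and -1.84), HP5 (-3.73 and -3.71), HP1c (-2.21 and -1.82), Hmr (-2.41 and -1.96) and egg (-1.86 and -1.78). The other higher ones were del (1.05 and 1.17), Su(var)3-3 (1.12 and 1.29), cuff (2.05 and 2.19) and Lhr (1.82 and 1.90). TMM factors gave 3 higher and 8 lower, as del (0.56 and 0.59) and Su(var)3-3 (0.63 and 0.71) lost the call. With the total over genes and TE copies 1 was higher and 13 lower, and the sign turned for del (-0.13 and -0.01) and, over Rev, for Su(var)3-3 (-0.06). All 7 lower genes, those of HP1a and Su(var)2-HP2 among them, kept the lower call under each scaling. Of the genes of the Rhino complex at piRNA clusters, del lost the higher call under each alternative scaling. The gene cuff, of the same complex, lost it with the total over genes and TE copies (0.87 and 1.01), as did Lhr (0.64 and 0.72). Of the 27 piRNA genes 9 were higher (33.3%, near the 35.2% of all genes) and 1 lower (3.70%, beside 19.3%). Among them zuc, the gene of a piRNA-processing nuclease, had 1023 counts in iso1a, beside 179 in Rev and 129 in IR6 (3.93 and 4.12). The helicase gene spn-E had 524, 310 and 209 (2.17 and 2.46). TMM factors gave 6 higher and 2 lower piRNA genes, and with the total over genes and TE copies 3 and 4. Of the 8 telomere genes 2 were higher and 2 lower (25% each, beside 35.2% and 19.3% of all genes). The genes cav (1.77 and 1.95) and HipHop (1.29 and 1.27) were higher, and rad50 (-1.75 and -1.89) and mre11 (-1.38 and -1.67), of the complex that repairs DNA breaks, were lower. HipHop lost the call with TMM factors (0.80 and 0.69), and with the total over genes and TE copies 0 telomere genes were higher and 5 lower. For these lists too, the shares of all genes under the other scalings were not computed.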

How the data were processed

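Gene values are whole-number read counts per annotated transcript and TE values the number of reads overlapping each annotated copy, both used as deposited by the authors. Reads were aligned with Bowtie, per the submitters' processing notes, and the source column of the TE files names S-MART, per the file headers. Aligner version, genome build and treatment of reads mapping to several places are not given in the sources. Sequence names such as arm_4 and 3LHet belong to older assemblies, so no position was moved to another build, and whether a copy lies in a gene was not analysed here. The read names listed with copies (cut off at 100 characters) placed no chromosome 4 name on another sequence. They amounted to 6.87% of chromosome 4 counts in the iso1a body, 8.41% in Rev and 16.5% in IR6. In the ovary libraries they amounted to 84.6% in iso1a-454 and 9.70% in Solexa. Most reads outside iso1a-454 could thus not be checked.

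The count of a gene was the largest among its transcripts, and rows without a gene (1, 0, 681, 430 and 237 counts in iso1a-454, Solexa, iso1a, Rev and IR6) were left out. Of gene identifiers, 12473 matched a RefSeq symbol by locus tag, 548 by synonym and 244 did not. The chromosome 4 list held 85 written names, of which 69 matched a gene with counts that RefSeq places there. Matching by identifier as well as by symbol added 4 of these and was chosen after values were seen. Levels are CPM (counts per 1000000 gene counts) per kb of copy span. Ratios are log2 with 0.5 added to counts, with exact 95% Clopper-Pearson intervals conditional on the sum. Levels have exact Poisson and shares exact binomial intervals. Calls needed 2-fold and 50 counts, and where a library was at 0 the bound used 3 counts. With 1 library per group no test could be made. Without separate cultures or animals, intervals cover counting error only.

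The members, lists and comparisons were chosen with earlier results of these data known. Named copies and families were, for each library, the first 5 by counts, the 5 largest ratios each way, and INE-1, hoppel (numbered 1360 in the files) and TART-C; named genes were those with the most body counts or past 2-fold. The roo copy at 891415, the S2 copy, the other near-complete copies (hoppel, McClintock, Tirant, I-element), other telomeric members, the Stalker2 copy with 20 counts, the copies below the minimum in the iso1a comparison, the fourth Stalker copy and ovary copies below the first 5 were chosen after their values were seen. TMM factors came from edgeR 4.0.16 in R 4.3.3, median-ratio factors from a direct computation, and the rest from Python 3.11.15, numpy 2.4.6, pandas 2.3.3 and scipy 1.17.1. The functions were tested on simulated data with known folds. Alternatives were other scalings, count minimums, thresholds, lengths and sets of copies.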

Additional observations from a re-analysis of the deposited data

How the results depend on the processing

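No paired analysis was possible because each group held 1 library and the labels give no replicate numbers, and no library could be left out in turn. Depth limited the ovary results, with 13 counts in iso1a-454 and 330 in Solexa. Of 197 comparisons of a main value with an alternative, 120 stayed within 1.5 times the count or within the counting interval and 77 moved, and the cause was not tested beyond the construction of each alternative. Lengths and overlaps by aligned segments, the scalings of the sums in the bodies, the sums without TART-C or Tc3 and the use of every gene placed on chromosome 4 were chosen after seeing the data. Calls under the alternatives were made for chromosome 4 members and the gene lists alone. No share over all copies, families or genes stands beside them.

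Shares of TE counts moved as follows. Without overlapping copies they were 0.291% in the iso1a body and 1.38% in Rev. Without the copy with the most counts they were 0.262% in the iso1a body, 1.42% in Rev, 1.04% in IR6 and 1.42% in Solexa. Without arm_U they were 3.43%, 4.05%, 2.30% and 5.18% in those libraries.

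Levels in CPM per kb moved in the iso1a body to 6.57 (TMM), 6.74 (median ratio), 3.61 (genes and TEs), 10.4 (without overlapping copies), 9.24 (covered length), 7.40 (without the first copy) and 9.86 (aligned segments). The same 7 alternatives gave 1.39, 1.36, 1.24, 0.863, 1.40, 0.714 and 1.49 in Rev. In IR6 the level was 0.756 (TMM), 0.753 (median ratio), 0.795 (without overlapping copies), 0.713 (covered length), 0.605 (without the first copy) and 0.760 (aligned segments). In Solexa the level was 0.303 without overlapping copies, 0.0784 without the first copy and 0.292 per aligned kb. With at least 10 counts required, copies with counts numbered 134 in the iso1a body, 76 in Rev, 53 in IR6, 0 in iso1a-454 and 5 in Solexa.

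Between Rev and IR6, a minimum of 20 counts gave 10 copies higher and 4 lower, and 4 families higher and 2 lower. A minimum of 100 or a 4-fold threshold left 0 copies lower. Leaving out copies that overlap by span drops TART-C by construction, and 0 copies and 0 families were then higher, as were 0 families without each family's first copy. Chromosome 4 genes higher in Rev numbered 2 with TMM, 1 with median-ratio factors (1 lower) and 0 at 4-fold. The log2 ratio of the chromosome sums was 0.88 with TMM, 0.85 with median-ratio factors and 0.14 without TART-C.

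In iso1a against both, 89 copies were higher and 9 lower at a minimum of 20, 2 lower at 100, 1 lower at 4-fold and 7 lower scaled to genes and TEs. Families higher were 17 without each family's first copy. Families lower were 2 at a minimum of 20, 2 scaled to genes and TEs and 0 at 4-fold. Genes higher were 18 scaled to genes and TEs and 22 at 4-fold. Genes lower were 7 with TMM, 6 with median ratio, 10 scaled to genes and TEs and 4 summed over transcripts. The log2 ratio of the sum to Rev was 2.24 with TMM, 2.31 with median ratio, 1.54 scaled to genes and TEs and 3.55 without TART-C. To IR6 it was 3.12, 3.16 and 2.52 under the 3 scalings. The log2 ratio of iso1a-454 to Solexa was 1.36 without the Tc3 copy. Scaled to genes and TEs, these gene ratios past 2-fold changed sign. Over IR6 they were fuss (-0.091), PIP4K (-0.12), CG31999 (-0.080) and CG33521 (-0.078), and over Rev CaMKI (-0.13) and mav (-0.042).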
